A study of Homo sapiens with 11 samples.

Results

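The genes examined were 10 angiogenic and antiangiogenic factors of the retinal pigment epithelium (RPE), taken by symbol from a deposited table of 60605 features: the ligands VEGFA, VEGFC, PGF, ANGPT1 and ANGPTL4, the receptors KDR, FLT1 and NRP1, and the inhibitors SERPINF1 and THBS1. All 10 symbols were found, each on 1 row. Polyadenylated RNA had been sequenced from ARPE-19, an established human RPE cell line, as stable lines that expressed an open reading frame for 4 days: GFP, a fluorescent protein that served as the control (n = 3 libraries), Oct4, Sox2 or Klf4 alone, or all of Oct4, Sox2 and Klf4 together (OSK; n = 2 each). Stable expression in ARPE-19 cells is common to all groups, the controls included. The library names of every factor line carry the tag mC, and those of the GFP controls do not. Whatever mC denotes cannot be told apart from the factors in comparisons with GFP. The labels do not say whether replicates were separate cultures or clones, so p-values measure the spread between these libraries, which may be technical.

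The RPE lies between the photoreceptors and the choroidal vessels and is a source of both vessel-promoting and vessel-restraining proteins. VEGF-A, the product of VEGFA, acts on endothelial cells mainly through the receptor KDR (VEGFR-2), with NRP1 as a co-receptor, while FLT1 (VEGFR-1) binds VEGF-A and placental growth factor (PGF). Pigment epithelium-derived factor (PEDF), the product of SERPINF1, and thrombospondin-1, the product of THBS1, restrain vessel growth, and an excess of VEGF-A over PEDF is a textbook feature of neovascular eye disease.

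The libraries held 15053300 to 19791775 reads, recovered from the deposited normalised counts, which are gene counts divided by 1 factor per library. GFP replicate 1 and OSK replicate 1 stood apart, with 42956 and 32493 features detected against 25853 to 26971 in the other 9. Where leaving them out changed a call named here or moved its value by over 1.5 times, the value without them is given. POU5F1 (the gene of Oct4) averaged 67074 and 19281 normalised counts in the Oct4 and OSK lines against 263 in GFP, SOX2 29123 and 17673 in the Sox2 and OSK lines against 62.0, and KLF4 23173 and 24336 in the Klf4 and OSK lines against 72.1. Of RPE genes, the pigment genes PMEL and TYRP1 were present in every GFP library (4094 to 6067 and 2168 to 2813 normalised counts), whereas RPE65, which defines mature RPE, had at most 0.99. The test was limma on log2(normalised count + 1) over 18828 genes, and "rose" and "fell" are used where its adjusted p-value (Benjamini-Hochberg) was under 0.05.

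With Oct4, 3 of the 10 genes rose and 3 fell against GFP; of all genes tested 37.3% changed, 20.1% upward and 17.2% downward. With Sox2, 2 rose and 5 fell, beside 41.6% of all genes (21.7% and 19.9%). With Klf4, 0 rose and 4 fell, beside 33.5% of all genes (17.6% and 16.0%). With OSK, 2 rose and 5 fell, beside 39.7% of all genes (19.7% and 20.0%). The median log2 change of the 10 genes was 0.38 with Oct4, -0.62 with Sox2, -0.48 with Klf4 and -0.26 with OSK, and the median of all genes lay between -0.02 and -0.01. ANGPT1 reached the minimum level for testing only through the OSK libraries, and PGF only through the Oct4 libraries, GFP replicate 1 and OSK replicate 1, so these counts and medians describe the set and support nothing further. Between the lines, OSK differed from Oct4 and from Sox2 in 8 genes each (40.3% and 40.5% of all genes) and from Klf4 in 6 (21.5%). Sox2 differed from Oct4 in 6 (33.4%), Klf4 from Oct4 in 6 (41.7%) and Klf4 from Sox2 in 4 (40.8%).

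**Figure D1:**
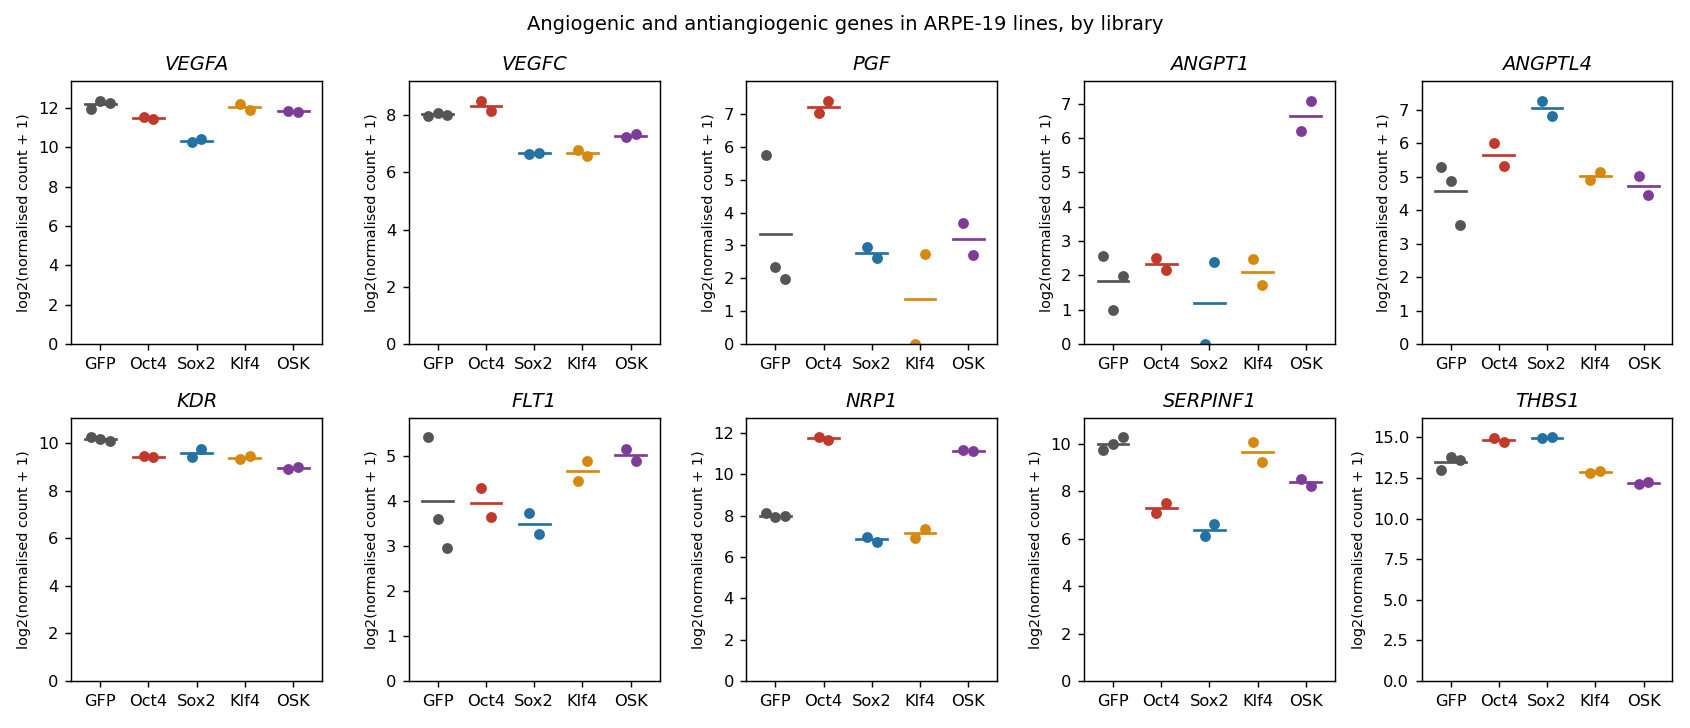
Each point is 1 library and each horizontal line a group mean of log2(normalised count + 1), for GFP (3 libraries) and the Oct4, Sox2, Klf4 and OSK lines (2 each). NRP1 is high in the Oct4 and OSK lines, ANGPT1 in OSK, and SERPINF1 is lowest in Sox2 cells.

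Normalised counts per kilobase of exon were used to compare levels between genes, with exon lengths from GENCODE 29. Each length joins the exons of all annotated transcripts of a gene, which gave 14431 bases for VEGFA and 3069 for SERPINF1. A gene expressed mainly as a shorter transcript is placed too low by this, so the order below holds only for these lengths. THBS1 had the highest level in every group, from 513 per kilobase in OSK to 3551 in Sox2 cells. In GFP it was followed by SERPINF1 (337 per kilobase) and VEGFA (327), and then by KDR (177) and VEGFC (108). FLT1, PGF and ANGPT1 were the lowest in GFP, at 1.58, 3.33 and 0.416 per kilobase. In Oct4 cells NRP1 (297 per kilobase) held the place below THBS1, ahead of VEGFA (197). SERPINF1 stood at 51.2 per kilobase in that line and at 27.2 in Sox2 cells.

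VEGFA, on chromosome 6 (43770184 to 43786487, plus strand; GENCODE 29, GRCh38), was lower in the Sox2, Oct4 and OSK lines. It had 3945, 5312 and 4889.5 normalised counts in the GFP libraries, 2927 and 2766 in Oct4, 1239 and 1354 in Sox2, 4637 and 3765 in Klf4, and 3711 and 3607 in OSK. Of the Klf4 libraries 1 lay among the GFP libraries and 1 below them, the OSK and Oct4 libraries lay below them, and the Sox2 libraries below all others. The log2 change from GFP was -1.85 in Sox2 cells (SE 0.11; limma adjusted p = 1.43e-09), a mean 3.64-fold lower. It was -0.72 in Oct4 cells (SE 0.11; limma adjusted p = 6.97e-05) and -0.36 in OSK (SE 0.11; limma adjusted p = 0.0157).

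In Klf4 cells the VEGFA difference was -0.16, with a 95% interval from -0.39 to 0.07 (limma adjusted p = 0.277). From high to low the order was GFP, Klf4, OSK, Oct4 and Sox2. The neighbours Klf4 and OSK did not differ detectably (log2 difference -0.19, interval -0.44 to 0.06; limma adjusted p = 0.299). OSK lay above the Oct4 line by 0.36 (limma adjusted p = 0.0228) and above the Sox2 line by 1.498 (limma adjusted p = 5.17e-08). The call in OSK against GFP was lost on leaving out GFP replicate 2 or 3 or either OSK library (limma adjusted p from 0.0534 to 0.102) and without a filter on low values (limma adjusted p = 0.0519). Without GFP replicate 1 the Klf4 difference of -0.29 passed (limma adjusted p = 0.0116), and the call of OSK over Oct4 was lost on leaving out any of the 4 libraries (limma adjusted p from 0.057 to 0.13).

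VEGFC, the ligand that acts on lymphatic endothelium through FLT4 and also binds KDR, lies on chromosome 4 (176683538 to 176792727, minus strand). It had 253, 270.1 and 259.5 normalised counts in GFP, 365 and 280.4 in Oct4, 98.7 and 103 in Sox2, 109 and 93.7 in Klf4, and 149 and 161 in OSK. The Sox2, Klf4 and OSK libraries all lay below the GFP libraries, and both Oct4 libraries above them. VEGFC fell in Sox2 cells (log2 change -1.36, SE 0.14; limma adjusted p = 8.37e-07), in Klf4 cells (-1.36, SE 0.14; limma adjusted p = 1.48e-06) and in OSK (-0.75, SE 0.14; limma adjusted p = 0.000392). The Oct4 difference was 0.29 (interval -0.0029 to 0.59; limma adjusted p = 0.115), and 0.48 without Oct4 replicate 2 (limma adjusted p = 0.0392). OSK lay between, above the Sox2 and Klf4 lines by 0.61 each (limma adjusted p = 0.00423 and 0.00847) and below the Oct4 line by 1.05 (log2 difference -1.05; limma adjusted p = 4.07e-05). The difference of OSK from Klf4 was not called without Klf4 replicate 2 or OSK replicate 2 (limma adjusted p = 0.0742 and 0.0753).

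PGF, which binds FLT1 and not KDR, lies on chromosome 14 (74941834 to 74955784, minus strand) and was high in Oct4 cells alone among the group means. It had 52.6, 4.05 and 2.92 normalised counts in GFP, 129 and 168 in Oct4, 6.73 and 5.14 in Sox2, 0 and 5.71 in Klf4, and 11.9 and 5.5 in OSK. Both Oct4 libraries lay above every other library, and GFP replicate 1 lay far above the other GFP libraries. The log2 change in Oct4 cells was 3.86 (SE 0.96; limma adjusted p = 0.00458). Without GFP replicate 1 it was 5.06 (limma adjusted p = 1.6e-05), against 4 reads at most in the remaining GFP libraries. The call was not made by DESeq2 (log2 change 2.90, adjusted p = 0.0854) or without Oct4 replicate 2 (3.67, limma adjusted p = 0.0541), and edgeR gave 2.90 (adjusted p = 0.00534).

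PGF in OSK was lower than in Oct4 cells by 4.02 on the log2 scale (log2 difference -4.02, SE 1.05; limma adjusted p = 0.00578), though not called without Oct4 replicate 2 or OSK replicate 2 (limma adjusted p = 0.0514 and 0.057). The Sox2 and Klf4 lines were also below the Oct4 line (log2 differences -4.43 and -5.84; limma adjusted p = 0.00363 and 0.000279). The Klf4 value rested on 0 and 5 reads and moved between -4.47 and -7.21 with either Klf4 library left out. Among GFP, Sox2, Klf4 and OSK no pair differed detectably, with an interval of -4.01 to 0.06 for Klf4 against GFP. The Klf4 difference from GFP was -1.98 with all libraries, and -3.35 without Klf4 replicate 2, which left the library with 0 reads. Both values include GFP replicate 1, where PGF was 15.1 times the mean of GFP replicates 2 and 3. They therefore cannot separate a fall of PGF in Klf4 cells from the high value of that GFP library.

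ANGPT1 encodes angiopoietin-1, the TEK agonist that stabilises vessels, on chromosome 8 (107249482 to 107498055, minus strand). It had 4.97, 1.01 and 2.92 normalised counts in GFP, 4.64 and 3.43 in Oct4, 0 and 4.28 in Sox2, 4.63 and 2.29 in Klf4, and 72.6 and 135 in OSK. Outside OSK no library held more than 5 reads of it, and in OSK there were 67 and 123. It reached the minimum level for testing only through OSK, where it is high, so that choice favoured a difference, and with either OSK library left out it was not tested. OSK exceeded GFP by 4.79 on the log2 scale (SE 0.78; limma adjusted p = 0.000125), the Oct4 line by 4.32 (limma adjusted p = 0.000702), the Sox2 line by 5.45 (limma adjusted p = 8.79e-05) and the Klf4 line by 4.54 (limma adjusted p = 0.00104). Fitted without the filter, the limma adjusted p-values of these 4 differences were 0.000745, 0.00343, 0.000543 and 0.00525. Without GFP replicate 1 the remaining GFP libraries had at most 3 reads, and OSK was then at least 34.9-fold higher, computed at 3 reads in a GFP library. The size depended on the pseudocount, with 3.74 in place of 4.79 at a pseudocount of 5, and the difference from Sox2 ran from 4.25 to 6.65 with either Sox2 library left out.

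ANGPTL4, an angiopoietin-like protein that inhibits lipoprotein lipase and is induced by PPAR receptors and by hypoxia, lies on chromosome 19 (8363289 to 8374373, plus strand). It had 37.7, 28.3 and 10.7 normalised counts in GFP, 62.7 and 38.9 in Oct4, 154 and 112 in Sox2, 28.9 and 34.3 in Klf4, and 31.4 and 20.9 in OSK. The Sox2 libraries lay above all others, and the Klf4 and OSK libraries overlapped those of GFP. ANGPTL4 rose in Sox2 cells by 2.48 on the log2 scale (SE 0.42; limma adjusted p = 0.000166). The Oct4 difference of 1.09 missed the threshold (interval 0.20 to 1.98; limma adjusted p = 0.0534) and passed without GFP replicate 1 (1.45, limma adjusted p = 0.00751). The Sox2 line exceeded OSK and Klf4 (log2 differences of OSK and Klf4 from it -2.31 and -2.03; limma adjusted p = 0.000761 and 0.00209), and Oct4 by 1.39 (limma adjusted p = 0.0289). That last call was lost without a filter on low values (limma adjusted p = 0.0751) and without Oct4 replicate 2 or either Sox2 library (limma adjusted p from 0.0568 to 0.213).

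RefSeq's promoter table (GRCh38.p14, 250 bases before to 50 after each start) held 6 of the 10 genes: VEGFC, PGF, ANGPTL4, THBS1, KDR and FLT1. Only exact strings were searched, and other forms of each core were not. On both strands, the hypoxia response core form ACGTG was found in 1 of these 6 genes (ANGPTL4) and in 21.4% of 35116 promoters. The KLF core CACCC was found in 4 of 6 genes and in 59.9% of promoters, the SOX core ATTGTT in 0 and in 10.1%, and the octamer ATGCAAAT in 0 and in 1.77%. Genes were counted by any of their promoters, while the shares are per promoter. PGF was counted for CACCC although another of its promoters held none. The motifs searched do not overlap one another in these windows. The 250 bases before the start are shown for ANGPTL4, the gene with ACGTG, and for KDR and THBS1, which changed in all 4 lines. The bases run 5′ to 3′ on the strand of the gene, with every match of a searched string in capitals. They lie at chr19:8363905-8364154 (plus strand), chr4:55125596-55125845 (minus strand) and chr15:39580829-39581078 (plus strand). The ANGPTL4 stretch precedes the RefSeq start but lies within the gene as placed by GENCODE 29, which begins at 8363289.
ANGPTL4: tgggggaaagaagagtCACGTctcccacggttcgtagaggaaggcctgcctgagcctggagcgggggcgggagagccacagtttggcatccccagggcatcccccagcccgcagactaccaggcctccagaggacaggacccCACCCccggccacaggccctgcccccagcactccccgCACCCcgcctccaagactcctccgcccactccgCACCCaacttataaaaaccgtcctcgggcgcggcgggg
KDR: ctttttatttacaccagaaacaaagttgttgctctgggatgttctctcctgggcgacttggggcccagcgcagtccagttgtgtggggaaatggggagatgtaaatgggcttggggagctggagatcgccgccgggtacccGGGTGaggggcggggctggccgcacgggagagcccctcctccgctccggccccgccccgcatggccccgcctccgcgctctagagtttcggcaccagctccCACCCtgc
THBS1: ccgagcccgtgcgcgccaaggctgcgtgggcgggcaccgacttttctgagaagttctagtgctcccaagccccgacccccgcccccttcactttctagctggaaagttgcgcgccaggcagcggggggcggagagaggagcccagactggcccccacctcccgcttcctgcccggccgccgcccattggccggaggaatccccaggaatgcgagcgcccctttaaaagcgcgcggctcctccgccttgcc
The capitals mark CACGT, the reverse complement of ACGTG, and then CACCC at 3 places in ANGPTL4. In KDR they mark CACCC and its reverse complement GGGTG, and THBS1 holds none of the 4 motifs in this window.

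KDR (VEGFR-2), on chromosome 4 (55078259 to 55125595, minus strand), was lower in all 4 lines than in GFP. It had 1218, 1170.5 and 1089 normalised counts in GFP, 698 and 687 in Oct4, 690.0 and 859 in Sox2, 642 and 700.4 in Klf4, and 476 and 504 in OSK. No library of a factor line reached the lowest GFP library, and the OSK libraries lay below all others. The log2 change was -0.74 with Oct4, -0.59 with Sox2, -0.79 with Klf4 and -1.24 with OSK (SE 0.09 each; limma adjusted p = 1.12e-05, 9e-05, 7.42e-06 and 3.2e-08). The mean in OSK was 2.37-fold below GFP.

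OSK was also below each single-factor line in KDR, by 0.50, 0.65 and 0.45 on the log2 scale for Oct4, Sox2 and Klf4 (log2 differences -0.50, -0.65 and -0.45; limma adjusted p = 0.000956, 8.77e-05 and 0.00425). The single-factor lines did not differ detectably from one another, with an interval from -0.42 to 0.02 for Klf4 against Sox2, although that difference passed without Sox2 replicate 1 (-0.36, limma adjusted p = 0.0216). The lines share the GFP libraries, so the 4 changes are not independent of one another. All 11 endothelial marker genes looked at had a row, and their summed level was 62.2 to 413 normalised counts in GFP (413 in GFP replicate 1, 70.8 and 62.2 in the others), 114 to 168 in Oct4, 120 to 163 in Sox2, 72.0 to 97.2 in Klf4 and 103 to 139 in OSK. A read was found of all 11 in GFP and of 8 in Oct4 (TIE1, CLDN5 and EMCN at 0). The number was 9 in Sox2 (CLDN5 and EMCN at 0), 8 in Klf4 (PECAM1, CDH5 and EMCN at 0) and 10 in OSK (ERG at 0). In GFP the reads of PECAM1, ERG and EMCN came from GFP replicate 1 alone, and GFP had 3 libraries against 2 in each line. EGFL7 was at 44.7, 32.4 and 38.9 normalised counts in GFP and at 144 and 89.3 in Oct4. ESAM was at 47.7, 25.3 and 15.55 in GFP. PECAM1 was at 20.85, 0 and 0 in GFP and at 12.3 and 17.1 in Sox2. VWF was at 73.5, 0 and 1.94 in GFP, 46.3 and 33.1 in Klf4, and 43.4 and 27.5 in OSK. Of the 6 endothelial genes tested 1 rose and 1 fell with Oct4, 1 rose with Sox2, 1 fell with Klf4 and 0 changed with OSK. The shares of all genes called were 37.3%, 41.6%, 33.5% and 39.7% with Oct4, Sox2, Klf4 and OSK. The summed level of 6 pericyte and smooth muscle genes was 1124 to 2237 in GFP, 668 to 977 in Oct4, 138 to 150 in Sox2, 608 to 865 in Klf4 and 308 to 403 in OSK, most of it RGS5 in GFP. The part of these cell type genes in the results was not tested. In bulk RNA, fewer cells of a type and less RNA per cell cannot be told apart.

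FLT1 (VEGFR-1), on chromosome 13 (28300344 to 28495145, minus strand), was near the lower limit of testing. It had 41.7, 11.1 and 6.8 normalised counts in GFP, 18.6 and 11.45 in Oct4, 12.3 and 8.56 in Sox2, 20.8 and 28.6 in Klf4, and 34.7 and 28.6 in OSK. GFP replicate 1 was the highest of all 11 libraries, and no line differed detectably from GFP, with an interval of -0.19 to 2.25 for OSK (log2 difference 1.03; limma adjusted p = 0.176). Without GFP replicate 1 FLT1 passed in OSK (1.74, limma adjusted p = 0.00401) and in Klf4 cells (1.39, limma adjusted p = 0.0212). In that setting the Oct4 and Sox2 differences turned from -0.03 and -0.50 to 0.68 and 0.22 and did not pass.

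NRP1, the co-receptor for VEGF-A and semaphorin 3A, lies on chromosome 10 (33177492 to 33336262, minus strand) and was higher in the Oct4 and OSK lines and lower in the Sox2 and Klf4 lines. It had 275, 241 and 251 normalised counts in GFP, 3565 and 3280.2 in Oct4, 123 and 106 in Sox2, 119 and 165 in Klf4, and 2323 and 2229 in OSK. The Oct4 and OSK libraries lay far above every GFP library and the Sox2 and Klf4 libraries below them, with the Sox2 and Klf4 ranges overlapping each other. The mean was 13.4-fold above GFP in Oct4 cells (log2 change 3.74, SE 0.12; limma adjusted p = 3.03e-12) and 8.91-fold in OSK (3.15, SE 0.12; limma adjusted p = 2.21e-11).

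NRP1 fell in Sox2 cells (log2 change -1.15; limma adjusted p = 1.26e-06) and in Klf4 cells (-0.86; limma adjusted p = 4.35e-05; SE 0.12 each). OSK lay below the Oct4 line by 0.59 (log2 difference -0.59, SE 0.13; limma adjusted p = 0.00209) and above the Sox2 and Klf4 lines by 4.30 and 4.01 (limma adjusted p = 1.65e-12 and 2.06e-11). The Klf4 and Sox2 lines were neighbours at the low end (log2 difference 0.29, interval 0.01 to 0.57; limma adjusted p = 0.0985), and without Klf4 replicate 1 the difference of 0.52 passed (limma adjusted p = 0.00547). The related co-receptor gene NRP2, a member of the other VEGF genes listed, had 55.6, 90.0 and 78.7 normalised counts in GFP, 1974 and 1700 in Oct4, 954 and 743 in Sox2, 44.0 and 68.6 in Klf4, and 74.8 and 109 in OSK. NRP2 thus rose in Oct4 cells (log2 change 4.62, limma adjusted p = 2.09e-10) and in Sox2 cells (3.50, limma adjusted p = 3.53e-09), where NRP1 fell, and its OSK difference of 0.30 did not pass (limma adjusted p = 0.324), where NRP1 rose.

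**Figure D2:**
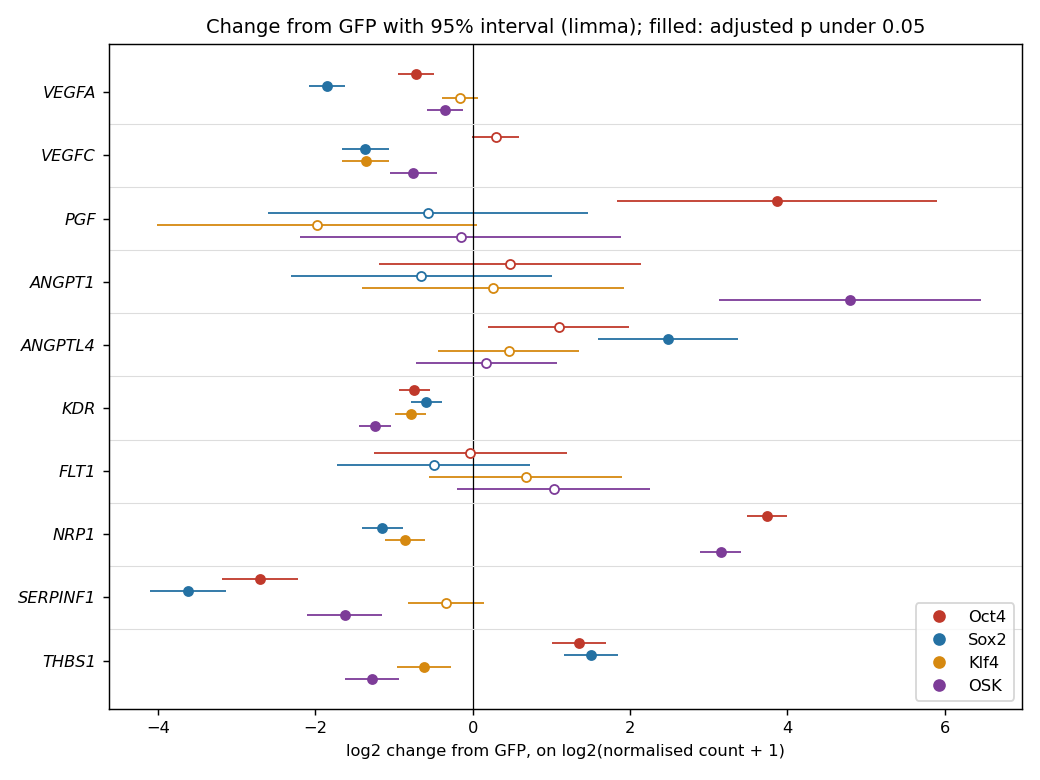
Points are log2 changes from GFP on log2(normalised count + 1) and bars their 95% intervals (limma), for each gene and line; filled points have an adjusted p under 0.05. KDR is below 0 in all 4 lines, and NRP1 and THBS1 lie on opposite sides of 0 in different lines.

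SERPINF1, the gene of PEDF, lies on chromosome 17 (1761959 to 1777574, plus strand) and was lower in the Oct4, Sox2 and OSK lines. It had 850.0, 1008 and 1243 normalised counts in GFP, 136 and 179 in Oct4, 68.4 and 98.5 in Sox2, 1092 and 596 in Klf4, and 369 and 296 in OSK. The Oct4, Sox2 and OSK libraries all lay below every GFP and Klf4 library. The mean was 12.4-fold below GFP in Sox2 cells (log2 change -3.62, SE 0.23; limma adjusted p = 2.94e-09), 6.58-fold in Oct4 cells (-2.71, SE 0.23; limma adjusted p = 1.12e-07) and 3.11-fold in OSK (-1.63, SE 0.23; limma adjusted p = 2.57e-05).

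The Klf4 libraries of SERPINF1 lay on either side of the lowest GFP library, and the difference of -0.34 was not detectable (interval -0.82 to 0.14; limma adjusted p = 0.279). It was -0.78 without Klf4 replicate 1 (limma adjusted p = 0.0249) and 0.10 without Klf4 replicate 2 (limma adjusted p = 0.806). OSK stood above the Oct4 and Sox2 lines by 1.079 and 1.99 (limma adjusted p = 0.00224 and 7.61e-06) and below the Klf4 line (log2 difference -1.29; limma adjusted p = 0.0012). The Sox2 line was below the Oct4 line by 0.92 (log2 difference -0.92; limma adjusted p = 0.00887), a call that edgeR and DESeq2 did not make (adjusted p from 0.0585 to 0.0679) and that was lost without Oct4 replicate 2 or Sox2 replicate 1 (limma adjusted p = 0.109 and 0.123).

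Beside SERPINF1, the summed level of the 14 other RPE genes listed was 32777 to 36071 normalised counts in GFP, 18520 to 19074 in Oct4, 21545 to 22184 in Sox2, 25574 to 28223 in Klf4 and 15783 to 16149 in OSK; RPE65 was at 0 in the Oct4 and Sox2 libraries and TTR in the Oct4 libraries. KRT8 and KRT18, keratin genes, made up most of this sum in GFP (15568 to 16617 and 5100.5 to 5682). Of all genes tested, 37.3%, 41.6%, 33.5% and 39.7% were called with Oct4, Sox2, Klf4 and OSK. Of 13 tested RPE genes, SERPINF1 included, 2 rose and 9 fell with Oct4, and 1 rose and 6 fell with Sox2. With Klf4 2 rose and 5 fell, and with OSK 2 rose and 10 fell. Among the RPE genes that rose were RDH5, a retinol dehydrogenase, and MERTK, a phagocytosis receptor. RDH5 was at 144 and 233 in Oct4, 512 and 412 in Klf4, and 186 and 169 in OSK. In Sox2 RDH5 was at 77.4 and 71.9, and in GFP at 67.1 to 83.4. MERTK was at 136 and 163 in Oct4, 97.6 and 84.8 in Sox2, and 122.5 and 131 in OSK. MERTK was lower in Klf4, at 20.8 and 34.3, against 58.7 to 64.5 in GFP. By Pearson r over the 11 libraries, the genes most like SERPINF1 of 16384 with a symbol were CYB5RL (r = 0.996), TYRP1 (0.994) and TYR (0.992), the last 2 being enzymes of melanin synthesis. TYRP1 had 2168, 2491 and 2813 normalised counts in GFP, 236 and 312 in Oct4, 119 and 149 in Sox2, 2057 and 1204 in Klf4, and 923 and 709 in OSK. These r values describe 5 group levels more than 11 independent points. What part the changes of these RPE genes have in that of SERPINF1 was not tested.

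THBS1, on chromosome 15 (39581079 to 39599466, plus strand), rose in the Oct4 and Sox2 lines and fell in the Klf4 and OSK lines. It had 8281, 14476 and 12460.0 normalised counts in GFP, 32140.3 and 26489 in Oct4, 32041 and 33007 in Sox2, 7271 and 7670.4 in Klf4, and 4423 and 4974 in OSK. GFP replicate 1 was the lowest GFP library, and still no Klf4 or OSK library reached it and no Oct4 or Sox2 library came down to the highest GFP library. The log2 change was 1.35 with Oct4 and 1.51 with Sox2 (SE 0.16 each; limma adjusted p = 5.95e-06 and 1.39e-06), a mean 2.50-fold and 2.77-fold above GFP. It was -0.61 with Klf4 and -1.29 with OSK (SE 0.16 each; limma adjusted p = 0.00757 and 9.11e-06).

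The Oct4 and Sox2 lines were neighbours at the high end of THBS1 and did not differ detectably (log2 difference 0.16, interval -0.22 to 0.53; limma adjusted p = 0.553). OSK was below the Oct4 and Sox2 lines by 2.64 and 2.79 on the log2 scale (log2 differences -2.64 and -2.79; limma adjusted p = 8.52e-09 and 4.05e-09). It was also below the Klf4 line (log2 difference -0.67; limma adjusted p = 0.0117), a call lost without either Klf4 library or without OSK replicate 1 (limma adjusted p from 0.0528 to 0.103). The call of Klf4 below GFP was lost without Klf4 replicate 1 (limma adjusted p = 0.0677). The genes most like THBS1 over the 11 libraries were HMGB1 (r = 0.991), PKDCC (0.991) and HSPB1 (0.988). THBS1 shares 448 exon bases with FSIP1 on the opposite strand, a gene at 3.47 to 25.8 normalised counts, and 411 (4.49%) with the antisense gene AC037198.2, and whether counting used strand is not given in the sources used here. VEGFA and NRP1 share 188 and 561 exon bases with antisense genes (1.30% and 4.87% of their exon length). If counting did not use strand, reads from the shared bases cannot be told apart by gene.

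**Figure D3:**
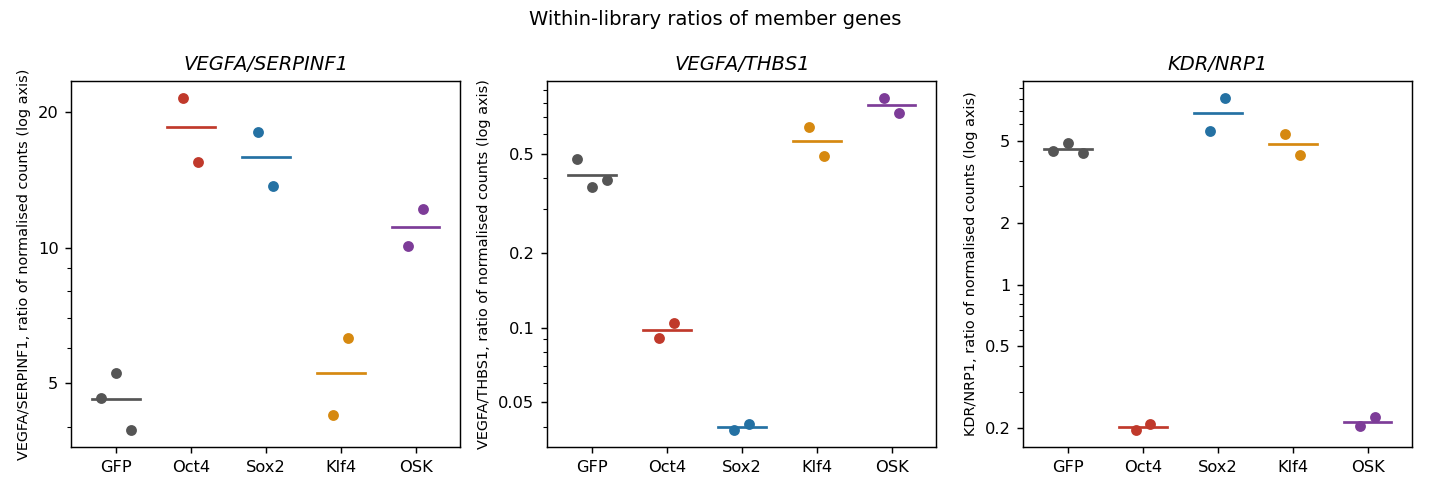
Ratios of normalised counts within each library (log axis), 1 point per library and a line at the group mean. VEGFA over SERPINF1 is highest in the Oct4 and Sox2 lines, VEGFA over THBS1 is lowest there, and KDR over NRP1 is low in the Oct4 and OSK lines.

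Ratios within a library do not depend on the library's factor, and gene length cancels when the same ratio is compared between groups. They are given as a description, with no test. VEGFA over SERPINF1 was 4.62 ± 0.67 in GFP (SD, n = 3), 18.5 ± 4.28 in Oct4, 15.9 ± 3.08 in Sox2, 5.28 ± 1.46 in Klf4 and 11.1 ± 1.501 in OSK (n = 2 each). The Oct4, Sox2 and OSK ratios lay above all GFP ratios, at 4.01, 3.45 and 2.41 times the GFP mean, and the Klf4 ratios overlapped GFP. VEGFA itself was lower in those 3 lines, so the rise of the ratio came with a larger fall of SERPINF1 than of VEGFA.

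VEGFA over THBS1 was 0.412 ± 0.0573 in GFP, 0.0978 ± 0.00944 in Oct4, 0.0398 ± 0.00166 in Sox2, 0.564 ± 0.104 in Klf4 and 0.782 ± 0.0805 in OSK. Every Oct4 and Sox2 ratio lay below, and every Klf4 and OSK ratio above, those of GFP. The 2 inhibitors moved apart in the Oct4 and Sox2 lines, where THBS1 over SERPINF1 was 16.9 and 35.3 times the GFP mean. In Klf4 and OSK that ratio overlapped GFP. Both inhibitors fell in OSK (log2 changes -1.29 for THBS1 and -1.63 for SERPINF1). KDR over NRP1 was 4.54 ± 0.278 in GFP, 0.203 ± 0.00961 in Oct4 and 0.215 ± 0.0149 in OSK, and 6.84 ± 1.77 in Sox2 and 4.82 ± 0.800 in Klf4.

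The genes most like VEGFA over the 11 libraries included MYC (r = 0.996) and DIO2 (0.987), given as a description. MYC, a transcription factor of cell growth, had 1601, 1889.75 and 1905 normalised counts in GFP, 1297 and 1264 in Oct4, 716 and 796 in Sox2, 1757 and 1664 in Klf4, and 1538 and 1529 in OSK, the same order of groups as VEGFA.

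Other genes of the pathway were counted from lists, to be read beside the shares of all genes tested, which were 20.1% higher and 17.2% lower with Oct4, 21.7% and 19.9% with Sox2, 17.6% and 16.0% with Klf4, and 19.7% and 20.0% with OSK. Of 10 HIF target genes, which hypoxia-inducible factors activate as they do VEGFA, 2 rose and 3 fell with Oct4, 1 rose and 6 fell with Sox2, 2 rose and 5 fell with Klf4, and 4 rose and 4 fell with OSK (medians -0.16, -0.58, -0.35 and -0.04). CA9, a carbonic anhydrase on that list, had 55.6, 94.1 and 83.6 normalised counts in GFP and 26.7 and 46.9 in Oct4. It had 11.2 and 8.56 in Sox2, 2792 and 1756 in Klf4, and 280 and 186 in OSK. Its log2 change was 4.85 with Klf4 (limma adjusted p = 3.35e-09) and -2.83 with Sox2 (limma adjusted p = 7.28e-07). What part HIF has in the changes of VEGFA was not tested. Of 11 HIF and PPAR regulators, 3 rose and 3 fell with Oct4, 2 rose and 2 fell with Sox2, and 1 rose and 3 fell with Klf4 and with OSK. EPAS1, the gene of HIF-2α, fell in Sox2 cells (log2 change -1.76, limma adjusted p = 7.98e-11) and the Oct4 line (-0.97, limma adjusted p = 9.02e-08), and in Klf4 and OSK by less (-0.26 and -0.49, limma adjusted p = 0.0212 and 0.000129). It was chosen after its values were seen, as were HIF1A, which fell with Klf4 and OSK (-0.82 and -1.02, limma adjusted p = 1.49e-05 and 1.01e-06), and PPARD, which rose with Oct4 (1.37, limma adjusted p = 9.18e-09) and fell with Klf4 (-0.46, limma adjusted p = 0.000903).

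Of 19 other angiogenic ligands listed 17 were tested, beside 37.3%, 41.6%, 33.5% and 39.7% of all genes called with Oct4, Sox2, Klf4 and OSK. With Oct4 8 rose and 3 fell, with Sox2 10 rose and 4 fell, with Klf4 3 rose and 6 fell, and with OSK 4 rose and 9 fell (medians 0.28, 0.92, -0.19 and -0.45). FGF1, a fibroblast growth factor, was at 10.9, 2.02 and 0.97 normalised counts in GFP and rose with Oct4 (106 normalised counts on average against 4.64 in GFP; log2 change 4.68, limma adjusted p = 8.86e-06), Sox2 (3.96, limma adjusted p = 3.86e-05) and OSK (3.43, limma adjusted p = 0.00017). Without GFP replicate 1 these changes were 5.445, 4.725 and 4.196 (limma adjusted p = 5.61e-09, 2.55e-08 and 1.33e-07), and 1.447 with Klf4 passed as well (limma adjusted p = 0.00855; 0.68 and not called with all libraries). The matricellular gene CCN2 and the vasodilator peptide gene ADM fell with Klf4 (log2 changes -1.66 and -1.79; limma adjusted p = 3.13e-07 and 1.59e-08) and with OSK (-1.94 and -1.58; limma adjusted p = 3.36e-08 and 4.11e-08). Both rose with Oct4 (0.96 and 2.12; limma adjusted p = 8e-05 and 1.7e-09) and with Sox2 (1.56 and 1.07; limma adjusted p = 3.55e-07 and 2.82e-06). PDGFD fell with Oct4, Sox2 and Klf4 (-1.81, -2.17 and -0.30; limma adjusted p = 3.56e-10, 3.25e-11 and 0.0169). PDGFB fell with OSK (-2.01, limma adjusted p = 6.49e-05) and rose with Sox2 (3.46, limma adjusted p = 1.69e-07) and Oct4 (1.14, limma adjusted p = 0.00772).

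**Figure D4:**
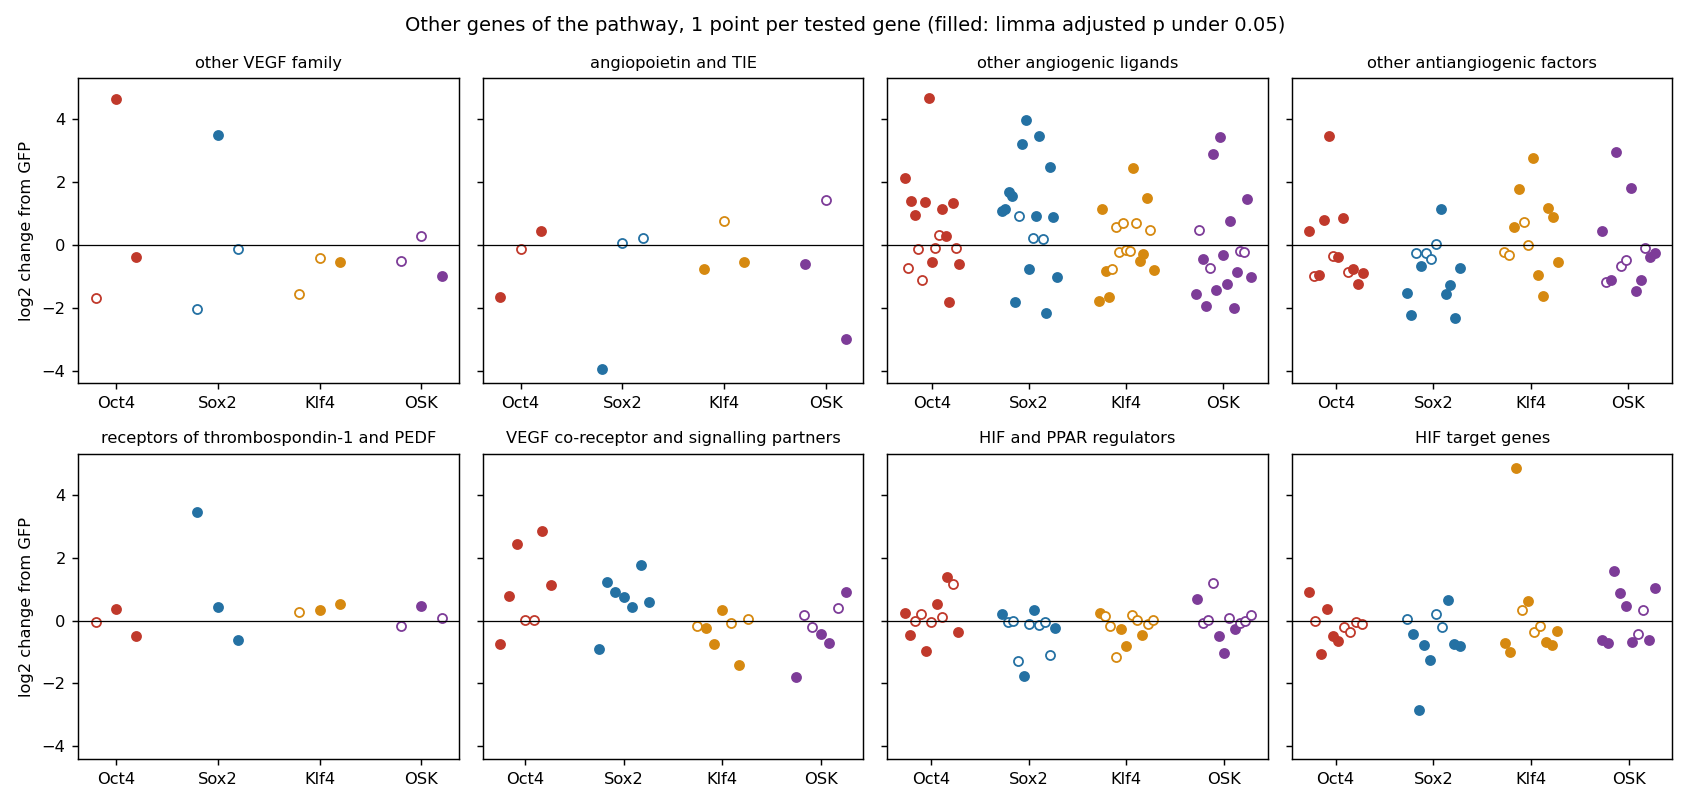
Each point is the log2 change from GFP of 1 tested gene in the Oct4, Sox2, Klf4 or OSK line, by list; filled points have a limma adjusted p under 0.05. The highest point of the other VEGF genes is NRP2 (4.62 with Oct4), and the highest HIF target is CA9 (4.85 with Klf4).

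The same shares of all genes called, 37.3%, 41.6%, 33.5% and 39.7%, stand beside the remaining lists. Of 14 other antiangiogenic factors 12 were tested: 4 rose and 5 fell with Oct4, 1 rose and 7 fell with Sox2, 5 rose and 3 fell with Klf4, and 3 rose and 5 fell with OSK (medians -0.58, -0.69, 0.28 and -0.43). COL4A3, whose product is cleaved to tumstatin, rose with OSK from 2087 to 16308 normalised counts on average (log2 change 2.97, limma adjusted p = 1.38e-13). COL4A3 was at 2033 to 2179 in GFP, 3513 and 3719 in Oct4, 1421.5 and 1230 in Sox2, and 6838 and 7290 in Klf4. SEMA3F, a semaphorin that binds NRP2, rose with Klf4 (2.77, limma adjusted p = 7.49e-11). SEMA3F was at 905 and 737 in OSK, against 200 to 257 in GFP. Of 7 tested VEGF co-receptors and partners, 4 rose and 1 fell with Oct4, 6 rose and 1 fell with Sox2, and 1 rose and 3 fell with Klf4 and with OSK. Of 3 receptors of thrombospondin-1 and PEDF, 1 rose and 1 fell with Oct4, and 2 rose and 1 fell with Sox2. With Klf4 2 rose, and with OSK 1 rose. CD47, chosen after its values were seen, rose in all 4 lines (log2 changes 0.37, 0.44, 0.33 and 0.46; limma adjusted p = 0.000546, 8.39e-05, 0.00169 and 5.65e-05). PNPLA2 was at 5504 to 6592 normalised counts in GFP, 4796 and 4022 in Oct4, and 3956 and 4109 in Sox2. PNPLA2 was at 8670 and 9050 in Klf4, and at 6398 and 6527 in OSK. CD36 was at 52.7 and 61.65 in Sox2, against 15.9, 2.02 and 1.94 in GFP. Of 9 angiopoietin and TIE genes 3 were tested. ANGPTL2 fell 15.6-fold in Sox2 cells (log2 change -3.96, limma adjusted p = 2.35e-14) and 3.15-fold with Oct4 (-1.66, limma adjusted p = 1.19e-10). ANGPTL2 was at 3879 and 3831 in Klf4 and 4482 and 4149 in OSK, against 6306 to 6864 in GFP. ANGPTL7 fell 8.08-fold in OSK (-3.00, limma adjusted p = 1.8e-10). TEK, the receptor of angiopoietin-1, chosen after its values were seen, had at most 16 reads in any library, and the 3 tested genes of the 4 other VEGF genes listed gave 1 rise and 1 fall with Oct4, 1 rise with Sox2, and 1 fall each with Klf4 and OSK.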

How the data were processed

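The 11 polyA RNA libraries of ARPE-19 were grouped by sample title. Per the submitters' processing notes, STAR 2.7.1a, featureCounts 1.6.2 and the builds GRCh38, hg38, GRCm38 and mm10 were used; their roles, the annotation and the use of strand are not given in the sources used here. The deposited signal is normalised counts, which the values show to be the authors' gene counts over 1 factor per library, rounded to 2 decimals. In each library 100% of values up to 200 came out as whole reads (tolerance 0.0061), so reads were recovered; for GFP replicates 1 and 2 the step (0.993 and 1.01) lies near 1.

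The main test was limma 3.58.1 (R 4.3.3; lmFit, eBayes with trend) on log2(value + 1), with 1 mean per group over all 11 libraries and genes at 10 or more in at least 2 libraries (18828 genes, 6 residual and 9.21 prior degrees of freedom), two-sided, with Benjamini-Hochberg adjustment and a threshold of 0.05. Fold changes are on the log2(value + 1) scale, where the pseudocount draws low values together and each library weighs equally. 10 comparisons were made, each line with GFP and each pair of lines. Alternatives were edgeR 4.0.16 and DESeq2 1.42.0 on recovered reads, a pseudocount of 5, no filter, only the compared groups, the replicate number as a block and libraries left out. The procedure was tested on simulated data. Recovered totals of 15053300 to 19791775 reads limit low genes to counting error.

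Named genes were the 10 members and, from the lists and for each comparison with GFP, the 2 largest rises and 2 largest falls with adjusted p under 0.05, a mean of at least 10 and libraries that did not overlap; others are marked in the text. The members and lists were chosen with earlier results of these data known. Gene lengths and positions are from GENCODE 29, which may not be the annotation used for counting, and promoters from RefSeq. Of the 3 genes most like VEGFA, 1 is not reported here.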

Additional observations from a re-analysis of the deposited data

How the results depend on the processing

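Of the alternative values, 1106 kept their direction and side of the threshold, 30 lost the call, 19 gained it and 29 changed sign, none of these last past the threshold. Leaving out a library left a factor line with 1 library, assumed to vary like the others. No scaling alternative moved the median of all genes by over 0.1, and without a filter on low values it moved by -0.315, -0.314, -0.310 and -0.226 in Oct4, Sox2, Klf4 and OSK against GFP. Counts of reads limit PGF, ANGPT1 and FLT1.

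With 1 library left out, or GFP replicate 1 and OSK replicate 1 together, the members changed in OSK against Oct4 numbered 5 to 7 (8 with all; 5 without OSK replicate 2), and all genes changed in OSK against Klf4 2539 to 3771 (4049 with all; 2580 without Klf4 replicate 1 and 2539 without OSK replicate 2). The causes were not tested.

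Signs changed against GFP without GFP replicate 1, alone or with OSK replicate 1, for FLT1 in Oct4 (0.683 in both) and Sox2 (0.215 in both) and for PGF in Sox2 (0.631 in both) and OSK (1.042 and 0.547). They changed without GFP replicate 2 for ANGPT1 in Klf4 (-0.169) and without GFP replicate 3 for ANGPTL4 in Klf4 (-0.053) and OSK (-0.339). Leaving out a factor library changed the sign of FLT1 in Oct4 (0.298), ANGPT1 in Sox2 (0.549) and Klf4 (-0.134), SERPINF1 in Klf4 (0.096), ANGPTL4 in OSK (-0.113) and PGF in OSK (0.341).

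For these results the lowest and highest values with a library left out were -0.544 and 0.683 (FLT1, Oct4), -1.011 and 0.215 (FLT1, Sox2), -1.256 and 0.631 (PGF, Sox2), -0.845 and 1.042 (PGF, OSK), -1.852 and 0.549 (ANGPT1, Sox2), -0.169 and 0.641 (ANGPT1, Klf4), -0.053 and 0.811 (ANGPTL4, Klf4), -0.339 and 0.526 (ANGPTL4, OSK), and -0.775 and 0.096 (SERPINF1, Klf4).

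For list genes, an alternative chosen after seeing the data, leaving out GFP replicate 1, changed the sign of HIF1A with Oct4 (0.014) and RDH5 with Sox2 (0.074), neither of which passed, and ended the call of ANGPTL7 with Oct4 (0.309, limma adjusted p = 0.0517). NRP2 with Klf4 then passed (-0.608, limma adjusted p = 0.0252). Without OSK replicate 1 as well, MERTK with Sox2 did not (0.616, limma adjusted p = 0.0623). ANGPT1 gave no value with either OSK library left out, since it was then below the minimum level.

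Between lines, signs changed for PGF in OSK against Sox2 (-0.084 without OSK replicate 1, alone or with GFP replicate 1), ANGPT1 in Sox2 against Oct4 (0.079), KDR in Sox2 against Oct4 (-0.005) and Klf4 against Oct4 (0.017), ANGPT1 in Klf4 against Oct4 (0.172) and Sox2 (-0.295), and VEGFC in Klf4 against Sox2 (-0.025 and -0.103, and -0.007 by edgeR with TMM factors). The ranges with a library left out were -0.084 to 0.907 for PGF, -2.322 to 0.079, -0.603 to 0.172 and -0.295 to 2.106 for ANGPT1, -0.005 to 0.311 and -0.109 to 0.017 for KDR, in that order, and -0.103 to 0.109 for VEGFC.

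The replicate numbers pair the samples by number only: the correlations of same-numbered deviations ran from -0.069 to 0.042, apart from 0.412 for GFP and OSK. With the replicate block, ANGPTL4 changed sign in Klf4 (-0.053) and OSK (-0.339) against GFP, VEGFA in OSK against GFP was not called (-0.324, limma adjusted p = 0.0638), and ANGPTL4 in OSK against Oct4 (-0.920, limma adjusted p = 0.035) and FLT1 in OSK against Sox2 (1.525, limma adjusted p = 0.034) were. With only the compared groups fitted, calls were gained for ANGPTL4 and FLT1 in OSK against Oct4 (limma adjusted p = 0.0456 and 0.0455) and for FLT1 in OSK and Klf4 against Sox2 (limma adjusted p = 0.00822 and 0.0444).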
